A study of Caenorhabditis elegans with 20 samples.

Results

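The genes described here are those whose transcript level in whole Caenorhabditis elegans differed between animals given F17 and animals given DMSO, on average over 2 genotypes and with a term for the developmental state of each library in the model. The emphasis lies on modest changes seen in both genotypes, above all on genes that fell. All 20 libraries of the series entered the comparison, 10 with F17 and 10 with DMSO. Of the 28301 genes listed, 13795 had enough counts to be tested, and 163 were called lower and 177 higher with F17 at an adjusted p under 0.05 (edgeR quasi-likelihood test). That is 1.18% and 1.28% of the genes tested. A fall was counted as modest and shared when its mean log2 fold change was smaller in size than 1, when it had the same sign in both genotypes, when the smaller of the 2 effects was at least 0.5 of the larger, and when the difference between genotypes was not called. There were 58 modest shared falls and, by the mirrored rule, 28 modest shared rises. Shared refers to the estimates and not to a call in each genotype.

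The animals were synchronized L4 larvae grown in liquid culture and collected whole. Wild-type animals, named N2 in the table's columns, and animals of an nhr-131 mutant strain, whose allele the labels do not give, received 2.5 µM F17 in DMSO or 0.1% DMSO alone for 4 h before harvest. The 4 groups of 5 libraries are the 4 pairings of genotype and treatment, and solvent and culture were common to them all. F17 is known here by this code only. nhr-131 encodes a member of the nuclear hormone receptor family, transcription factors that in C. elegans include many sensors of lipids and foreign compounds. The RNA comes from all tissues together, so fewer cells of a type and less RNA per cell cannot be told apart.

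As background, the intestine of C. elegans digests bacteria, stores fat and is the main site of both xenobiotic metabolism and defence against swallowed microbes. Foreign chemicals commonly raise transcripts of cytochrome P450 enzymes, UDP-glucuronosyltransferases, glutathione S-transferases and ATP-binding cassette transporters. Lysozymes, saposin-like proteins, C-type lectins, proteins with CUB-like domains and aspartyl or cysteine proteases belong to the digestive and defensive output of the gut, and many of their genes respond to pathogens, food and insulin signalling. Transsulfuration, the route from homocysteine to cysteine, feeds glutathione synthesis.

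Total counts ran from 12836432 to 26908383 per library. The labelled genotype was checked on nhr-131 itself, which had 77 to 196 counts in each wild-type library and 0 to 4 in each mutant library. Its mean F17 effect was not called (log2 fold change -0.06, SE 0.32, adjusted p = 0.947, edgeR). This value averages in the mutant libraries with 0 to 4 counts, and its sign turned when single mutant libraries were left out. In wild type nhr-131 averaged 7.90 ± 0.75 CPM with DMSO and 6.56 ± 0.54 CPM with F17 (SD, n = 5 each). The wild-type estimate was -0.27 (SE 0.26) and was not called (adjusted p = 0.628, edgeR). Library letters are those of the table's columns. In 6 libraries (wild-type DMSO libraries a and c, wild-type F17 libraries a and d, and both letter c libraries of nhr-131) genes of the transition from L4 to adult were low, and these libraries are called younger. Their age score, the mean z-score of 8 such genes, lay between -1.52 and -0.85. The term for developmental state is a 0/1 covariate for these 6 libraries. It was chosen from expression in the same data, so that it narrows the spread within groups by construction: the biological coefficient of variation was 24.8% with it and 41.1% without it. Among the 14 older libraries the score was 0.40 to 0.68 in wild type with DMSO and 0.06 to 0.20 in wild type with F17, but 0.48 to 0.63 and 0.46 to 0.91 in nhr-131 with DMSO and F17. In wild type, a lower score thus accompanied F17 even among the older libraries, and its part in the falls was not tested beyond the fits with that score given below.

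The falls were many and small, while the rises included large ones. The 163 falls had a median log2 fold change of -0.46 and ran from -2.09 to -0.21, and 145 of them were smaller in size than 1. The 177 rises had a median of 1.44, and 117 of them reached 1. For comparison, the median over all tested genes was -0.02. In wild type the falls had a median of -0.64 and in nhr-131 one of -0.31. The estimate was below 0 in both genotypes for 157 of the 163 and larger in size in wild type for 139. Within the same fit 118 of the falls were called in wild type, 11 in nhr-131 and 38 in neither; over all genes 2.97% were called in either direction in wild type and 0.797% in nhr-131. Of the 58 modest shared falls, 28 were called in wild type, 3 in nhr-131 and 29 in neither. These values come from the contrast that chose the genes and are given as a description.

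**Figure D1:**
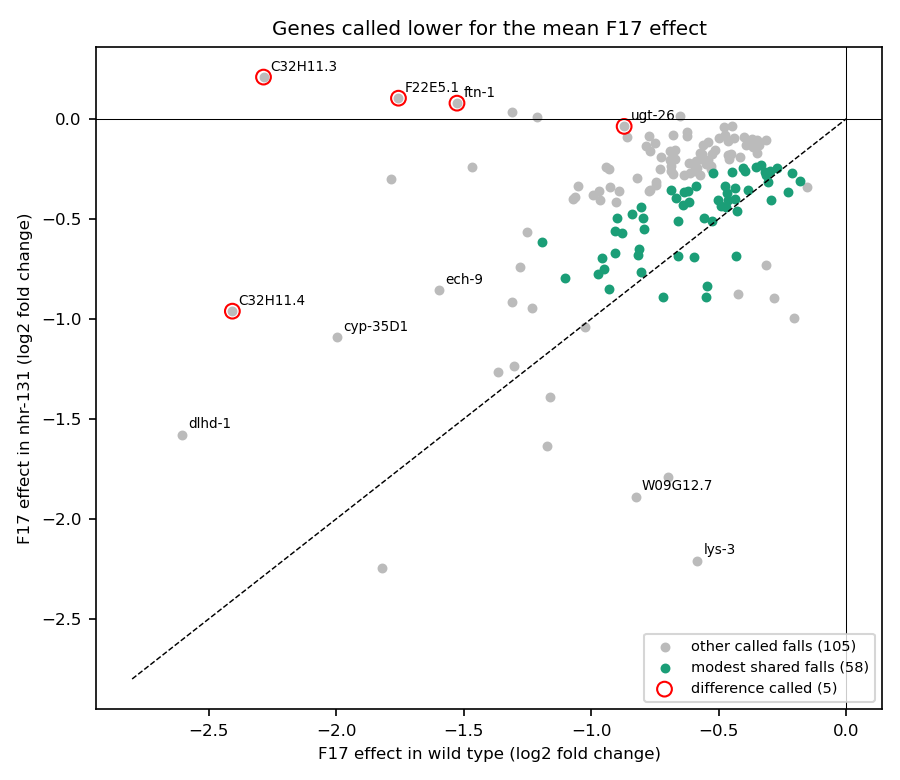
Each point is 1 of the 163 genes called lower, with the F17 effect in wild type on the x axis and in nhr-131 on the y axis, both as log2 fold change; green marks the 58 modest shared falls, red rings the 5 genes whose effects were called different, and the dashed line marks equal effects. Most points lie above the dashed line, where the fall was larger in wild type (139 genes), and 6 lie above 0 in nhr-131.

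Most falling genes were also low in the younger libraries. The coefficient of the younger libraries in the fit had a median of -0.78 on the log2 scale over the falls, against 0.02 over all tested genes, and 55 of the 163 were below -1 and 0 above 1. Over all genes 1309 were below -1 and 1854 above 1. Without the covariate 23 genes were called lower, 0.167% of those tested, and all 23 were among the 163. Every one of the 163 kept its sign both without the covariate and in the 14 older libraries alone, where 133 of them were called. Over all tested genes 13250 kept their sign without the covariate and 11832 in the older libraries, where 13499 were tested and 244 called lower. Both fits use libraries that chose the 163, so these counts are a description. Of the 58 modest shared falls, 6 were called without the covariate (F22B8.7, cth-1, R05G6.10, spp-23, Y36E3A.2 and cpr-4) and 51 in the older libraries. With the age score in place of the younger term there were 111 falls, and 57 of the 163 lost their call; of 59 modest shared falls 39 were among the 58. With both terms there were 137 falls and 57 modest shared ones.

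The deepest fall was that of dlhd-1, a gene for a protein with a dienelactone hydrolase domain. Wild type held dlhd-1 at 9.15, 24.2, 3.93, 27.4 and 23.1 CPM with DMSO, for libraries a to e in that order, against 0.860, 3.36, 3.09, 1.23 and 6.04 CPM with F17. In nhr-131 dlhd-1 stood at 15.1, 18.6, 3.67, 10.9 and 16.9 CPM with DMSO, against 4.47, 5.35, 0.684, 4.53 and 7.82 CPM with F17. The F17 libraries lay below the DMSO libraries of their genotype in every older library, and the younger libraries of each group were the lowest of it. The log2 fold change was -2.09 (SE of 0.18, adjusted p = 7.5e-08), with -2.60 in wild type and -1.58 in nhr-131.

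arrd-3, of the arrestin domain family, fell almost as far by 2.03 (SE 0.49, adjusted p = 0.026), from the low levels of 0.465 ± 0.444 CPM in DMSO-treated and 0.115 ± 0.137 CPM in F17-treated wild type, and 0.914 ± 0.677 and 0.178 ± 0.0717 CPM in nhr-131 (SD, n = 5 each); it was chosen for mention after its value was seen. C32H11.4, which belongs to the genes that respond to bacterial infection, had the next largest fall. Wild type held C32H11.4 at 6.27, 11.7, 3.54, 18.6 and 14.4 CPM with DMSO, against 1.25, 2.38, 2.36, 0.846 and 3.24 CPM with F17. In nhr-131 C32H11.4 stood at 10.9, 9.55, 3.41, 6.73 and 12.04 CPM with DMSO, against 4.35, 4.73, 1.95, 3.85 and 6.66 CPM with F17. Older libraries did not overlap between treatments in either genotype. Its log2 fold change was -1.68 (SE of 0.15, adjusted p = 1.37e-07), and the fall was larger in wild type (-2.41) than in nhr-131 (-0.96, adjusted p of the difference = 0.0287). The P450 gene cyp-35D1 fell by 1.54 (SE 0.20, adjusted p = 2.68e-05) and averaged 3.30 ± 1.98 CPM in DMSO-treated and 0.769 ± 0.243 CPM in F17-treated wild type, and 4.61 ± 1.95 and 2.22 ± 0.861 CPM in nhr-131 (SD, n = 5 each).

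**Figure D2:**
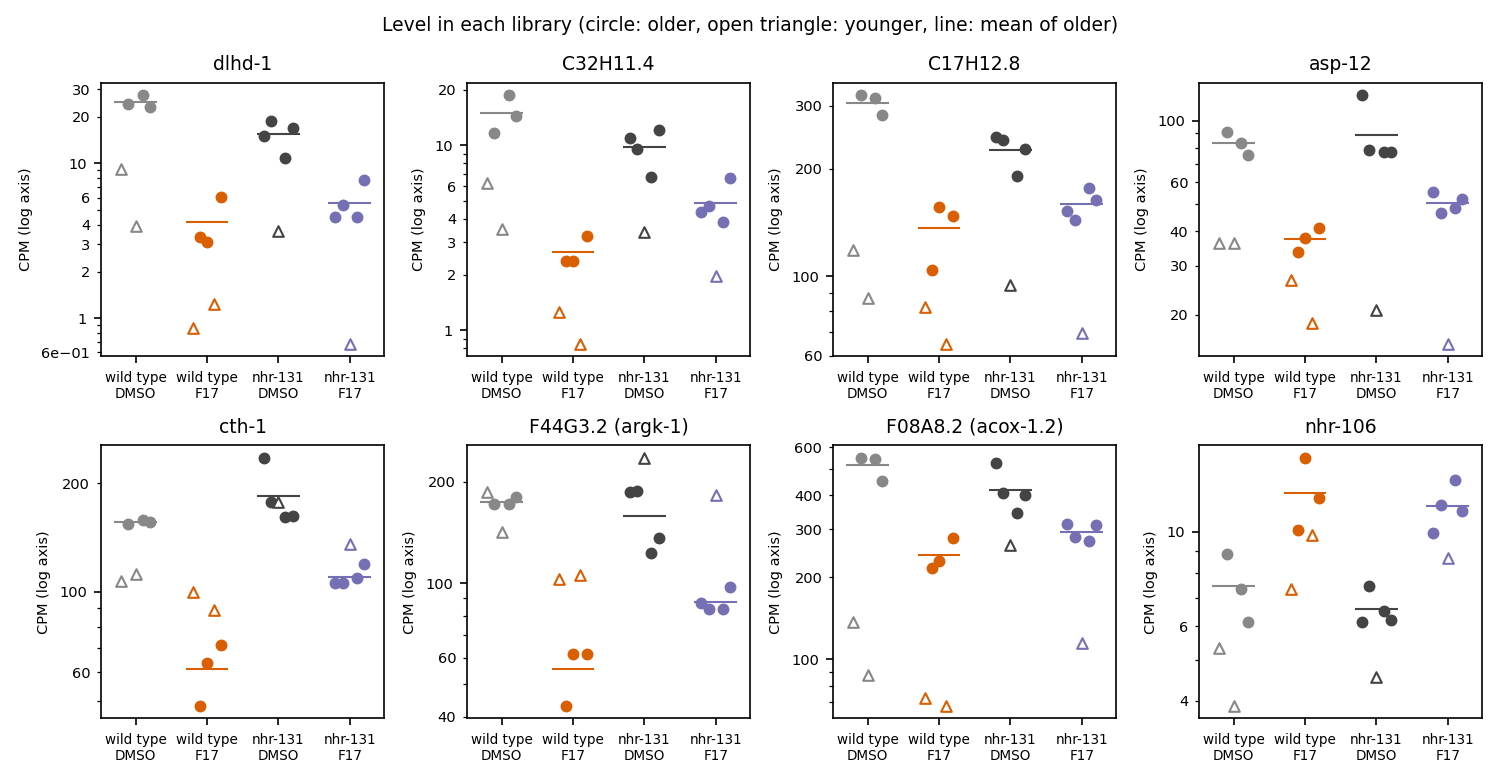
Level of 8 genes in each of the 20 libraries, in TMM-scaled CPM on log axes that differ between panels; filled circles are older libraries, open triangles younger ones, and lines the mean of the older libraries of a group. Among the older libraries F17 lies below DMSO in both genotypes for the first 7 genes and above it for nhr-106.

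A stretch of 4 neighbouring tested genes, F22B8.7, str-7, cth-1 and F44G3.2 in RefSeq order, held the clearest separation in the table. cth-1 encodes cystathionine gamma-lyase, which releases cysteine in transsulfuration. Wild type held cth-1 at 107, 155, 112, 158 and 156 CPM with DMSO, against 99.7, 48.3, 63.6, 89.04 and 71.1 CPM with F17. In nhr-131 cth-1 stood at 235, 177, 177, 162 and 162 CPM with DMSO, against 106, 106, 135, 109.5 and 119.1 CPM with F17. All 5 F17 libraries lay below all 5 DMSO libraries in each genotype, the younger ones included, and the younger libraries differed little from the older ones in this gene (coefficient 0.10). Its log2 fold change was -0.79 (SE of 0.12, adjusted p = 0.000232), -0.91 in wild type and -0.67 in nhr-131, and library a of nhr-131 with DMSO stood high. F22B8.7 showed the same separation at 66.9 ± 20.3 CPM in DMSO-treated and 36.1 ± 3.42 CPM in F17-treated wild type, and 67.3 ± 9.86 and 48.1 ± 4.07 CPM in nhr-131 (SD, n = 5 each), with a log2 fold change of -0.66 (SE of 0.09, adjusted p = 9.19e-05). The remaining gene without overlap was str-7, a member of a chemoreceptor family, which was low at 0.650 to 4.89 CPM and had a log2 fold change of -1.09 (SE of 0.19, adjusted p = 0.00109). No other tested gene had F17 wholly below DMSO in both genotypes over all 20 libraries, which makes 3 genes or 0.0217%. Over the 14 older libraries 100 genes did (0.725%), 54 of them among the 163 falls and 33 among the 58 modest shared falls.

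F44G3.2, now named argk-1, encodes an arginine kinase, an enzyme that buffers ATP through phosphoarginine. Wild type held F44G3.2 at 186, 172, 142, 171 and 180.0 CPM with DMSO, against 103, 43.1, 61.5, 106 and 61.4 CPM with F17. In nhr-131 F44G3.2 stood at 187, 188, 236, 122 and 137 CPM with DMSO, against 87.0, 83.7, 182, 84.0 and 97.5 CPM with F17. The F17 libraries were all below the DMSO libraries in wild type, whereas in nhr-131 the younger F17 library c overlapped the DMSO range. In contrast with most falls, this gene was higher in the younger libraries (coefficient 0.60). The log2 fold change was -1.01 (SE of 0.13, adjusted p = 2.34e-05), just beyond the limit of 1 that separates modest from large falls; it was -1.28 in wild type and -0.74 in nhr-131. On the inner side of that limit stood best-5 (-0.95), gst-29 (-0.91) and F11D5.7 (-0.86), and on the outer side F44G3.2, cyp-25A1 (-1.04) and str-7.

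Other genes of sulfur and amino acid metabolism fell by smaller amounts. cbs-1, for cystathionine beta-synthase, the step before cth-1, fell by 0.32 (SE 0.08, adjusted p = 0.0273), and sqrd-1, for sulfide:quinone oxidoreductase, which oxidises hydrogen sulfide, fell by 0.52 (SE 0.10, adjusted p = 0.00282). sqrd-1 had like estimates in both genotypes (-0.53 and -0.51), from 26.997 ± 10.4 CPM in DMSO-treated and 18.2 ± 5.80 CPM in F17-treated wild type, and 31.4 ± 11.9 and 21.5 ± 6.08 CPM in nhr-131 (SD, n = 5 each). ckb-4, a choline kinase gene, had -0.30 (SE of 0.08, adjusted p = 0.0383). With cth-1 and cbs-1 it makes 3 of the 23 tested genes of the phosphatidylcholine and methionine cycle list lower and 0 higher (13.04% lower; list median -0.08), and 0 of its genes were higher at an unadjusted p under 0.05, with DESeq2 or with limma-voom. Of 31 amino acid breakdown genes 2 were called lower and 0 higher, oatr-1 (C16A3.10, ornithine aminotransferase, -0.29) and flu-2 (kynureninase, -0.24); 29 of the 31 estimates were below 0, with a median of -0.13, and 1 gene was higher at an unadjusted p under 0.05 and 0 with DESeq2 or limma-voom. The calls of ckb-4, cbs-1, flu-2 and oatr-1 were close to the threshold and were lost under 20, 12, 9 and 5 of 37 other settings. Estimates in wild type and nhr-131 were -0.46 and -0.18 for cbs-1, -0.46 and -0.11 for oatr-1, and -0.34 and -0.13 for flu-2. None of these 3 met the rule for a modest shared fall.

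Several genes for digestive and lysosomal proteases fell, most with estimates below 0 in both genotypes. asp-12 encodes an aspartyl protease. Wild type held asp-12 at 36.1, 91.3, 36.1, 83.3 and 75.4 CPM with DMSO, against 26.6, 33.7, 37.7, 18.7 and 41.0 CPM with F17. In nhr-131 asp-12 stood at 123, 78.1, 20.7, 77.4 and 77.0 CPM with DMSO, against 55.2, 46.5, 15.7, 48.5 and 52.3 CPM with F17. Older libraries of the treatments did not overlap, and the younger DMSO libraries lay within or below the range of the older F17 libraries. The log2 fold change was -0.85 (SE of 0.13, adjusted p = 0.000404), -0.95 in wild type and -0.75 in nhr-131. cpr-4, a gene for a secreted cathepsin B-like protease, had 495 ± 66.6 CPM in DMSO-treated and 340.5 ± 67.9 CPM in F17-treated wild type, and 355 ± 126 and 202 ± 57.01 CPM in nhr-131 (SD, n = 5 each), with a log2 fold change of -0.69 (SE of 0.15, adjusted p = 0.0137), and its call held without the covariate (adjusted p = 0.0415). asp-13 fell by 0.48 (SE 0.10), with -0.86 in wild type and -0.09 in nhr-131. With asp-14 they make 4 of 35 lysosomal and autophagy genes lower and 0 higher (11.43% lower), 28 of 35 estimates being below 0 with a median of -0.08. By edgeR 3 genes of the list were higher at an unadjusted p under 0.05, and DESeq2 and limma-voom each called 1 higher.

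pcp-4, related to prolyl carboxypeptidases, averaged 308 ± 128 CPM in DMSO-treated and 166 ± 46.2 CPM in F17-treated wild type, and 267 ± 65.6 and 197 ± 51.8 CPM in nhr-131 (SD, n = 5 each) and fell by 0.62 (SE 0.10, adjusted p = 0.000503). Its relatives pcp-1 (-0.33), pcp-2 (-0.48) and pcp-3 (-0.43) were also called lower; these were chosen for mention after their values were seen. app-1, an aminopeptidase P gene, fell by 0.29 (SE 0.06) at -0.32 in wild type and -0.26 in nhr-131. Of 25 peptide and sugar transporter genes 2 were lower and 2 higher (8.0% each way), with a median of -0.12. The falls were the amino acid transporter gene aat-4 (-0.42) and pept-1 (-0.26), whose product takes up dipeptides in the intestine. The rises were larger, swt-6 by 3.12 and swt-7 by 2.54, both genes of the SWEET sugar transporter family. In pept-1 the fall was -0.48 in wild type and -0.04 in nhr-131, and in aat-4 the call was lost under 22 of 37 other settings.

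Defence genes made up the list with the greatest share of falls. Of 18 tested infection response genes 9 were called lower and 1 higher, that is 50% and 5.56%; 14 of 18 estimates were below 0, and the median was -0.50. The list was drawn up with earlier results of these data known and its direction is not independent evidence. The median was -0.76 in wild type and -0.16 in nhr-131, and only 1 of the 9, irg-3, met the rule for a modest shared fall. The 9 were C32H11.4, dct-17, dod-17, dod-19, dod-24, irg-3, tsp-1, tsp-2 and ZK6.11 (irg-8), and the 1 that rose was F08G5.6 (irg-4, 0.61). dod-24 averaged 67.97 ± 32.2 CPM in DMSO-treated and 30.3 ± 9.52 CPM in F17-treated wild type, and 31.1 ± 10.23 and 23.5 ± 7.88 CPM in nhr-131 (SD, n = 5 each), with a log2 fold change of -0.73 (SE of 0.10, adjusted p = 4.72e-05). irg-3 had like estimates in both genotypes (-0.82 and -0.68), whereas dod-19 had -0.77 in wild type and -0.16 in nhr-131. The tetraspanin genes tsp-1 and tsp-2 had larger estimates in nhr-131 (-1.79 and -1.64) than in wild type (-0.70 and -1.17), from levels of at most 6.77 CPM, and their differences were not called (adjusted p = 0.597 and 0.768). Without the covariate 3 of the 9 falls were called, and in the older libraries 10 genes of the list.

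C17H12.8, a gene for a CUB-like domain protein, was the modest shared fall of lowest p. Wild type held C17H12.8 at 118.8, 321, 87.1, 314 and 283 CPM with DMSO, against 82.1, 104, 156, 64.8 and 148 CPM with F17. In nhr-131 C17H12.8 stood at 246, 241, 94.7, 191 and 228 CPM with DMSO, against 152, 144, 69.3, 177 and 164 CPM with F17. The treatments did not overlap among older libraries, and the younger libraries were the lowest of each group. Its log2 fold change was -0.70 (SE of 0.10, adjusted p = 6.25e-05), -0.90 in wild type and -0.50 in nhr-131.

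Among 53 lysozyme, saposin-like and antimicrobial peptide genes 4 were lower and 0 higher (7.55% lower). The list median was 0.01 for the mean effect, with 0.27 in wild type and -0.19 in nhr-131. By edgeR 3 of the 53 were higher at an unadjusted p under 0.05, and DESeq2 and limma-voom each called 1 higher. lys-4, a lysozyme gene, fell with like estimates in both genotypes (-0.81 and -0.65). Wild type held lys-4 at 203, 538, 179.6, 487 and 421 CPM with DMSO, against 137, 207, 258, 115 and 273 CPM with F17. In nhr-131 lys-4 stood at 781, 441, 155, 391 and 410.2 CPM with DMSO, against 343, 333, 98.6, 298 and 314 CPM with F17. Library a of nhr-131 with DMSO stood far above the rest of its group, and older libraries of the treatments did not overlap. Its log2 fold change was -0.73 (SE of 0.12, adjusted p = 0.000701), and without that library and library b of wild type with F17 it kept its call. Without the covariate lys-4 was not called (adjusted p = 0.541, edgeR). lys-3 fell by 1.396 (SE 0.30, adjusted p = 0.0116), mainly in nhr-131 (-2.21 against -0.58 in wild type; the difference was not called, adjusted p = 0.392). spp-23, a saposin-like gene, fell by 0.78 (SE 0.16) and was called without the covariate as well (adjusted p = 0.0269). lys-6 was at the edge of the threshold (-0.90, adjusted p = 0.0496).

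C-type lectin genes, which encode carbohydrate-binding secreted proteins, moved in both directions. Of 104 tested, 7 were lower (clec-3, clec-10, clec-51, clec-82, clec-150, clec-170 and clec-218) and 5 higher (clec-56, clec-174, clec-187, clec-206 and clec-227), 6.73% and 4.81%, and the median was -0.09. clec-3 fell by 1.11 (SE 0.17, adjusted p = 0.000263) from 8.12 ± 4.37 CPM in DMSO-treated and 3.03 ± 1.43 CPM in F17-treated wild type, and 5.41 ± 2.76 and 2.79 ± 0.996 CPM in nhr-131 (SD, n = 5 each). clec-10 fell by 0.41 (SE 0.07) with -0.48 in wild type and -0.34 in nhr-131.

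**Figure D3:**
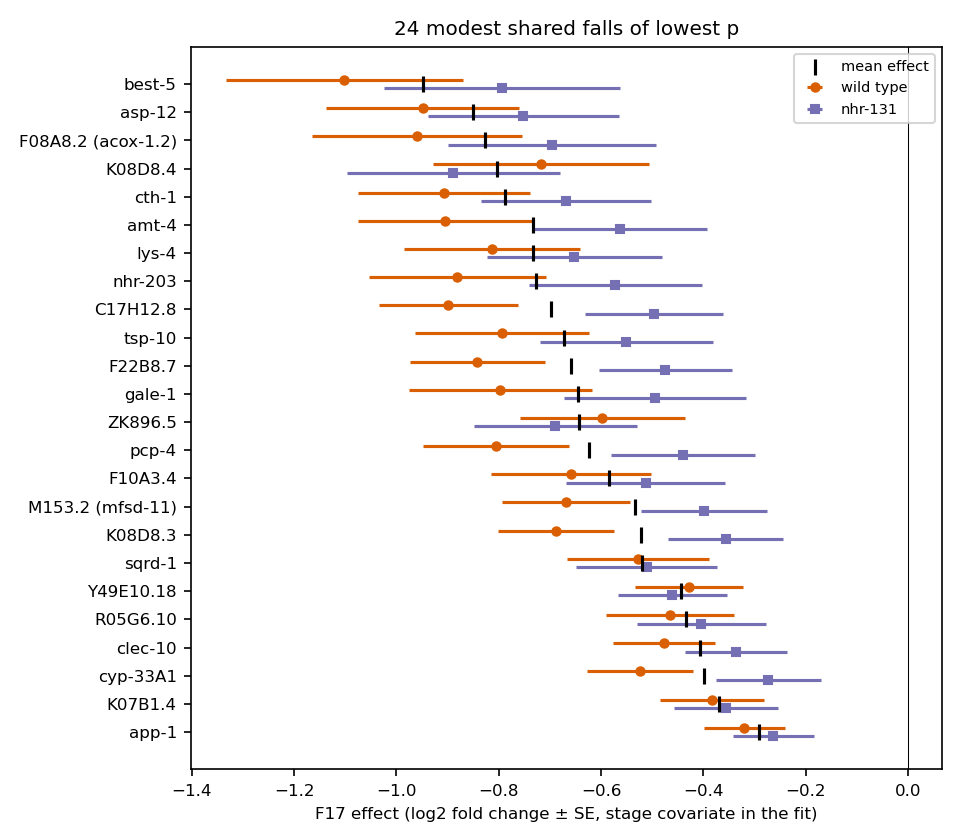
Estimated F17 effect on the log2 scale for the 24 modest shared falls of lowest p, with the stage covariate in the fit; circles are wild type and squares nhr-131, each with its SE, and black ticks the mean effect that ranked the genes. All 48 estimates lie below 0, as the rule required, and for most genes the 2 error bars meet.

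In lipid metabolism single genes were called while the list medians lay near 0. F08A8.2, now named acox-1.2, encodes an acyl-CoA oxidase of the peroxisome, where the side chains of ascaroside pheromones are shortened. Wild type held acox-1.2 (F08A8.2) at 137, 549.7, 87.8, 545 and 452 CPM with DMSO, against 71.9, 217, 229, 67.6 and 279 CPM with F17. In nhr-131 acox-1.2 (F08A8.2) stood at 527, 407, 264, 343 and 402 CPM with DMSO, against 313, 282, 115, 271 and 311 CPM with F17. Older F17 libraries were below older DMSO libraries in both genotypes, and the younger wild-type libraries of both treatments were below all of these. The log2 fold change was -0.83 (SE of 0.14, adjusted p = 0.00134). ech-9, for an enoyl-CoA hydratase, fell by 1.23 (SE 0.24, adjusted p = 0.00366), whereas the thiolase gene daf-22 was called higher at 0.28, a call lost under 24 of 37 other settings. The 16 peroxisomal beta-oxidation and ascaroside genes thus had 2 falls and 1 rise, with a median of -0.01. acdh-2, an acyl-CoA dehydrogenase gene, was the 1 fall of 29 mitochondrial beta-oxidation genes (-0.39, SE 0.08), with 22 estimates below 0 and 0 genes higher by edgeR, DESeq2 or limma-voom (1 at an unadjusted p under 0.05).

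The desaturase genes fat-7 and fat-5 were called in opposite directions. fat-7, for a stearoyl-CoA desaturase, fell by 0.69 (SE 0.14, adjusted p = 0.00717), with -1.05 in wild type and -0.34 in nhr-131. fat-5, for a palmitoyl-CoA desaturase, rose by 0.56 (SE 0.13, adjusted p = 0.0217), with 0.65 and 0.47. Both were much lower in the younger libraries (coefficients -2.004 and -2.55), and without the covariate neither was called (adjusted p = 0.824 and 0.984). They are the 2 calls among 28 genes of fatty acid synthesis, elongation and desaturation.

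The other modest shared falls among the 24 of lowest p had varied roles. amt-4, an ammonium transporter gene, averaged 104 ± 30.04 CPM in DMSO-treated and 55.6 ± 15.5 CPM in F17-treated wild type, and 101 ± 42.6 and 67.4 ± 20.4 CPM in nhr-131 (SD, n = 5 each) and fell by 0.73 (SE 0.12, adjusted p = 0.000644). best-5, of the bestrophin anion channel family, fell by 0.95 (SE 0.16), tsp-10, a tetraspanin gene, by 0.67 (SE 0.12) and gale-1, for UDP-galactose 4-epimerase, by 0.65 (SE 0.13). Of 182 nuclear hormone receptor genes 3 were lower (nhr-137, nhr-202 and nhr-203) and 4 higher (nhr-11, nhr-106, nhr-112 and nhr-142), 1.65% and 2.198%, which is near the share over all genes. nhr-203 averaged 9.58 ± 3.33 CPM in DMSO-treated and 5.06 ± 1.71 CPM in F17-treated wild type, and 12.3 ± 1.59 and 8.32 ± 1.48 CPM in nhr-131 (SD, n = 5 each), with a log2 fold change of -0.73 (SE of 0.12, adjusted p = 0.000737), and its neighbour nhr-202 had -0.94 in wild type and -0.24 in nhr-131. K08D8.3, K08D8.4, K07B1.4, F10A3.4, M153.2 (mfsd-11), R05G6.10, Y49E10.18 and ZK896.5 fell by between 0.37 and 0.80 and make up the rest of the 24, with cyp-33A1 (-0.40). All 58 modest shared falls lay between -0.95 and -0.24, and 20 of them belonged to a gene list.

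**Figure D4:**
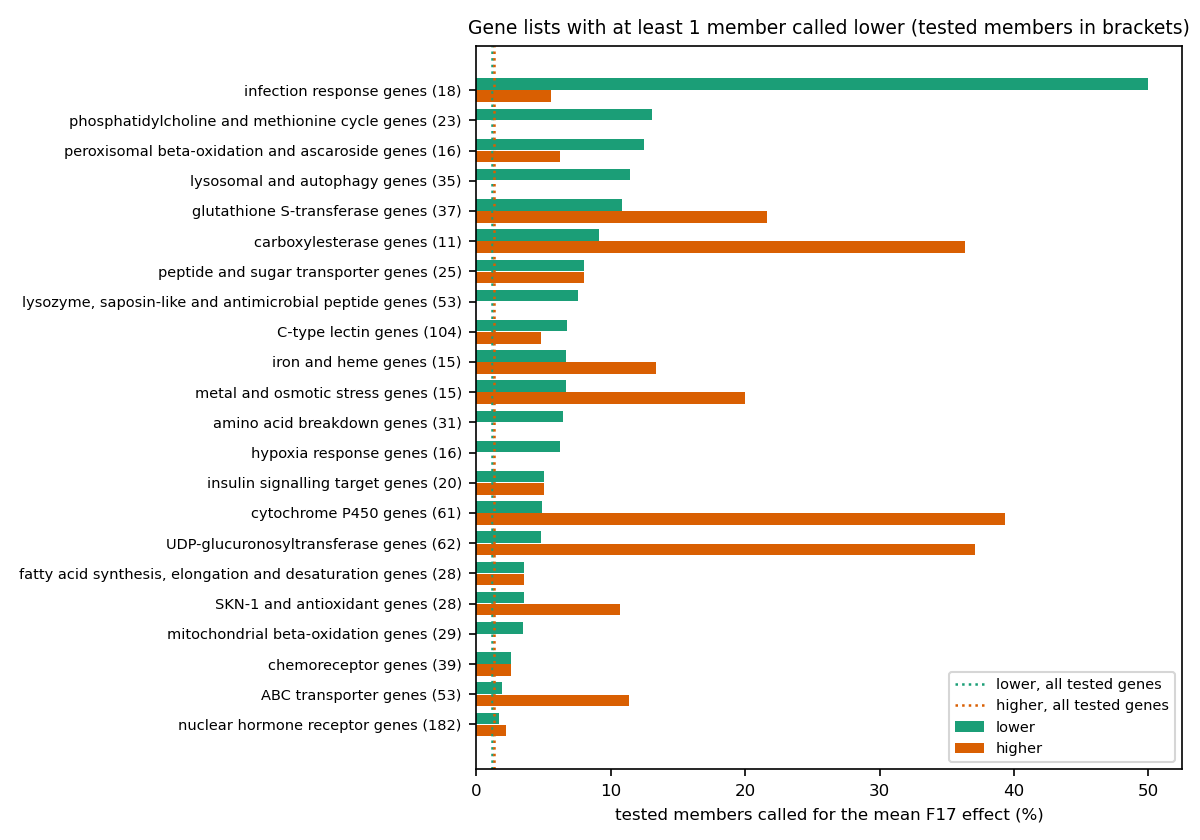
Share of the tested members of each gene list called lower (green) or higher (orange) for the mean F17 effect, for the 22 lists with at least 1 fall, the number tested in brackets; dotted lines mark the 1.18% and 1.28% of all tested genes. Infection response genes reached 50% lower, and P450 and UDP-glucuronosyltransferase genes 39.3% and 37.1% higher.

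The detoxification families held many rises and fewer falls. Over all tested genes 1.28% were called higher and 1.18% lower, so the shares of rises and of falls printed next were both above those. Of 61 P450 genes 24 rose and 3 fell (39.3% and 4.92%), of 62 UDP-glucuronosyltransferase genes 23 rose and 3 fell (37.1% and 4.84%), and of 37 glutathione S-transferase genes 8 rose and 4 fell (21.6% and 10.8%). Of 53 ABC transporter genes 6 rose and 1, wht-2, fell. The 3 P450 falls were cyp-25A1, cyp-33A1 and cyp-35D1, and the glutathione S-transferase falls were gst-4, gst-22, gst-27 and gst-29. gst-29 had -0.91 (SE 0.19), and cyp-25A1 had -1.79 in wild type and -0.30 in nhr-131. Among the rises named by rule the largest were large in both genotypes: cyp-14A4 by 7.35 (SE 0.14), cdr-1 by 6.59 (SE 0.21) and C52A10.2 (cest-35.2) by 6.42 (SE 0.32). Reads of close paralogs in these families may be shared, so that levels of single members are uncertain.

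Modest shared rises were fewer than modest shared falls. The 28 had a median log2 fold change of 0.57, 0.57 in wild type and 0.56 in nhr-131. nhr-106, a nuclear hormone receptor gene, rose with near-equal estimates in both genotypes. Wild type held nhr-106 at 5.33, 8.84, 3.89, 7.32 and 6.15 CPM with DMSO, against 7.35, 10.1, 14.9, 9.81 and 12.03 CPM with F17. In nhr-131 nhr-106 stood at 6.12, 7.45, 4.55, 6.49 and 6.22 CPM with DMSO, against 9.94, 11.6, 8.70, 13.2 and 11.2 CPM with F17. In nhr-131 every F17 library was above every DMSO library, and in wild type the younger F17 library a lay within the DMSO range. Its log2 fold change was 0.82 (SE of 0.10, adjusted p = 2.33e-05), 0.80 in wild type and 0.83 in nhr-131. ceeh-1, for an epoxide hydrolase, averaged 24.9 ± 2.53 CPM in DMSO-treated and 36.6 ± 7.31 CPM in F17-treated wild type, and 20.95 ± 2.62 and 32.9 ± 4.34 CPM in nhr-131 (SD, n = 5 each), with a log2 fold change of 0.60 (SE of 0.09, adjusted p = 0.000358).

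Single enzymes of several pathways were among these rises, while the medians of their lists lay near or below 0. pgm-1 (R05F9.6), named for phosphoglucomutase, rose by 0.43 (SE 0.06), the aldehyde dehydrogenase genes alh-5 and alh-10 by 0.46 and 0.40, and sptl-2, for a subunit of serine palmitoyltransferase, by 0.37. Of 27 glycolysis and gluconeogenesis genes 2 were higher and 0 lower (6 lower at an unadjusted p under 0.05 by edgeR, 0 by DESeq2 or limma-voom), with 20 estimates below 0 and a median of -0.10. Of 43 short-chain and aldehyde dehydrogenase genes 4 were higher and 0 lower (3 at an unadjusted p under 0.05, 0 by the other tools), with 27 below 0 and a median of -0.03. Of 23 sphingolipid genes 2 were higher and 0 lower (1 at an unadjusted p under 0.05, 0 by the other tools), with 10 below 0 and a median of 0.03. ugt-28 rose by 0.93 (SE 0.09), with 0.77 in wild type and 1.09 in nhr-131. R193.2, srlf-3 (C28C12.4), T10B10.8 and clec-56 rose by 0.67, 0.81, 0.66 and 0.58. cytb-5.1, for a cytochrome b5, rose by 0.76; it was chosen for mention after its value was seen. Of the 28 rises 11 were called without the covariate and 21 in the older libraries.

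Some falls were not common to both genotypes. The difference between the F17 effects was called for 60 genes (0.435% of those tested), and 5 of these were among the 163 falls: C32H11.3, C32H11.4, F22E5.1, ftn-1 and ugt-26, all with the larger fall in wild type. ftn-1, for the iron storage protein ferritin, averaged 16.483 ± 10.95 CPM in DMSO-treated and 5.62 ± 3.55 CPM in F17-treated wild type, and 20.6 ± 11.2 and 21.3 ± 10.6 CPM in nhr-131 (SD, n = 5 each). Its log2 fold change was -1.53 in wild type and 0.08 in nhr-131 (adjusted p of the difference = 0.00141). For the other 158 falls the difference was not called, which does not show that the effects were equal.

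The 2 genotypes were also fitted apart, so that genes chosen in one could be measured in libraries outside that fit, although the younger libraries were told apart over all 20. In the 10 wild-type libraries 143 genes were called lower, and 141 of them could be tested in the 10 nhr-131 libraries. There, 107 were lower (75.9%, against 54.2% of all genes tested), 38 were lower at an unadjusted p under 0.05 (26.95%, against 3.24%) and 6 at an adjusted p under 0.05 (edgeR). 1 gene, clec-173, was higher at an unadjusted p under 0.05. The median of the 141 was -0.68 in wild type and -0.13 in nhr-131, where all genes had -0.02. In the other direction the nhr-131 libraries gave 14 falls. All 14 were lower in the wild-type libraries, against 51.7% of all genes, 9 of them at an unadjusted p under 0.05 (64.3%, against 8.73%) and 6 at an adjusted p under 0.05. The 6 genes called in both fits were dlhd-1, cth-1, F44G3.2, C17H12.8, F22B8.7 and asp-12. These counts depended on the stage term and on single libraries. Without the term 1 of the wild-type falls was lower at an unadjusted p under 0.05 in nhr-131 in place of 38, and the nhr-131 libraries gave no fall to follow. With 1 library left out the 38 became 19 (without d of wild type with DMSO or c of wild type with F17) to 59 (without c of wild type with DMSO). The 9 became 1 (without a of nhr-131 with F17) to 17 (without d of nhr-131 with DMSO). All libraries were made within 1 study, and whether same-letter cultures were handled together is not given.

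Falling genes lay beside each other more often than tested genes at large. Of 161 falls placed on the RefSeq assembly WBcel235, 21 had another fall as the next tested gene (13.04%), while 2.32% of 13517 placed genes had a fall beside them. This is a description with no test. Among rises it was 61 of 176 (34.7%, against 2.45%). Besides the stretch of 4 around cth-1, the runs among falls were dod-19, ZK6.11 and Y39D8A.1, and the pairs C32H11.3 and C32H11.4, K08D8.3 and K08D8.4, nhr-202 and nhr-203, pcp-2 and pcp-3, tsp-1 and tsp-2, ZK896.4 and ZK896.5, and F55F3.2 and nkb-3. Several of these are members of 1 family, and although the library kit keeps strand, the strand setting of the counting is not given, so reads of overlapping neighbours cannot be told apart.

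Tissue and stage markers were compared alongside the falls. Most marker sets had medians within 0.2 of 0, while the germ cell and pharynx sets had medians above 0.5. Of 4 tested intestinal markers (act-5, elt-2, ges-1 and ifb-2) 2 were below 0, and the median was -0.01. Of these 4, ges-1 alone was called, higher at 0.74 (SE 0.08). The intestinal marker opt-2 was not tested under that name. Outside the 4, the intestinal transporter gene pept-1 was called lower, as given above. The summed level of the 4 in wild type was 2525 to 4746 CPM under DMSO and 2999 to 4325 CPM under F17. In nhr-131 it was 2866 to 5082 and 2918 to 4685 CPM. All 5 body wall muscle markers and all 5 neuronal markers had estimates below 0, with medians of -0.14 and -0.11 and 0 calls. The 5 germline, 5 sperm and 5 oocyte markers had estimates above 0 throughout, with medians of 0.55, 0.63 and 0.70 and 0 calls. Of 5 pharynx markers 2 were below 0 (median 0.54) and of 5 hypodermis markers 3 (median -0.14), again with 0 calls. Summed germline markers in wild type were at 63.2 to 794 CPM under DMSO and 235 to 788 CPM under F17, and in nhr-131 at 90.4 to 492 and 139.9 to 675 CPM. The 8 markers of late L4 to adult, which are the genes of the age score, had a median of -0.13 and 0 calls for the mean effect. Such genes were low in the libraries called younger, which have their own term in the fit, so this median is no check of stage. The 6 vitellogenin genes among them had medians of -1.19 in wild type and 0.90 in nhr-131, which the mean effect averages. In wild type the same fit called vit-3 (-1.79, adjusted p = 0.0296, edgeR) and vit-4 (-1.99, adjusted p = 0.0344) lower. Neither was called in nhr-131, where their estimates were 0.75 and 0.92. In the 14 older libraries alone vit-1 was called lower for the mean effect (-0.56, adjusted p = 0.0152, edgeR). The summed level of the 8 markers in wild type was 114.4 to 1461 CPM under DMSO and 85.4 to 905 CPM under F17. In nhr-131 the same sum was 43.03 to 2066 and 49.9 to 3967 CPM, higher at the top with F17. At an unadjusted p under 0.05 edgeR had 1 muscle and 1 late L4 marker lower and 2 pharynx, 2 germline, 4 sperm and 3 oocyte markers higher, with no neuronal or hypodermis marker past it, and DESeq2 and limma-voom called 0 of them. Whether these shifts contributed to the falls was not tested.

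**Figure D5:**
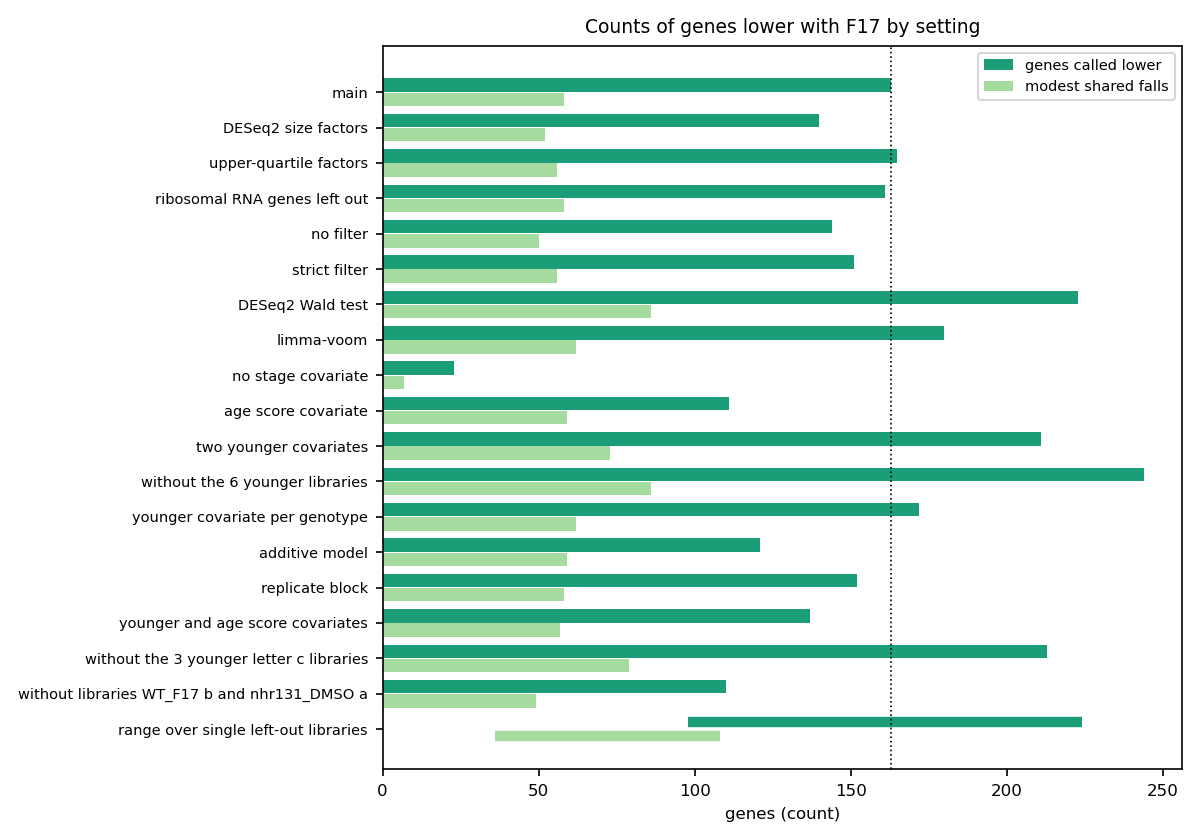
Number of genes called lower (dark green) and of modest shared falls (light green) under each setting of the analysis, with the main value of 163 as a dotted line; the lowest pair of bars spans the range over fits without 1 library, 98 to 224 and 36 to 108. Leaving out the stage covariate gave the shortest bars, 23 and 7.

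Leaving out single libraries moved the number of falls more than other scalings and filters of the counts did, which gave 140 to 165. It was 98 without library b of wild type with F17, 103 without c of that group, 106 without b of wild type with DMSO and 224 without d of nhr-131 with DMSO. Modest shared falls numbered 36 without c of wild type with F17 and 108 without d of nhr-131 with DMSO. Genes printed here outside the naming rule, other than whole lists, runs and counts of 5 or fewer, were chosen after their values were seen; they include irg-3, dod-19, tsp-1, tsp-2, lys-6, pept-1 and nhr-202. Of the 97 genes named by rule, 46 kept their call under every other setting in which they were tested. These were 37 settings, or 36 for str-7, which the strict filter left out. The only falls among the 46 were dlhd-1, C32H11.4, cth-1, F22B8.7, F44G3.2, cyp-35D1, str-7, ech-9, R05G6.10 and spp-23. The rest of the 46 were rises, nhr-106 among them, and every other named fall lost its call under some setting. Without the covariate 48 of the 97 lost their call. The submitters call the 5 libraries of a group independent biological replicates. The p-values of the main fit reflect the spread between them that was left after the stage term was fitted.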

How the data were processed

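The authors deposited 1 table of raw counts per gene for 20 poly(A)-selected, strand-preserving RNA-seq libraries. Per the submitters' processing notes the tools were TopHat2 and HTSeq; the sources used here do not give their versions, the genome build or the strand setting. Table columns were matched to a group by their names, and their letters do not tell which numbered replicate they are.

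Genes were kept by edgeR's filterByExpr at a minimum count of 10 and scaled by TMM, with 9 ribosomal RNA rows kept in the totals. The quasi-likelihood test (edgeR 4.0.16, R 4.3.3) used 4 group means and the 0/1 term for the 6 younger libraries, which left 15 residual degrees of freedom. The mean effect averages the F17 effects of both genotypes. P-values were adjusted by Benjamini-Hochberg over all 13795 genes, and levels are CPM from TMM-scaled library sizes. DESeq2 1.42.0 and limma 3.58.1 (voom) were alternatives, and the procedure was tested on simulated data. No 2 libraries were alike within counting noise (chi-square per degree of freedom of at least 20.9).

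The named genes were taken, at a mean log2 CPM no lower than 1, from the 24 modest shared falls and 10 modest shared rises of lowest p, the 6 largest falls, up to 3 called members of each of 54 gene lists, the 3 falls nearest to -1 on each side, and nhr-131. The question, the younger libraries, the members and the lists were chosen with earlier results of these data known. Members were selected by the log2 fold changes and adjusted p-values that the text prints, so these describe the genes and do not test them. Gene names and neighbours come from RefSeq (WBcel235), where 13517 tested genes matched. Alternatives covered scaling, filters, tools, stage terms, a block for column letters and each library left out.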

Additional observations from a re-analysis of the deposited data

Results flagged for a closer look

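Levels of single libraries were compared within each group of 5 on the log2 CPM scale after the stage term was taken out. In 388 groups of named genes, 24 had a library whose gap to its neighbour exceeded 0.71 of the group's range, and chance gives about 1 in 20 groups. Library a of nhr-131 with DMSO stood apart in 8 and library b of wild type with F17 in 7.

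Library a of nhr-131 with DMSO was high for clec-10 (5.66), cth-1 (7.88), fat-5 (7.82), hrg-4 (3.31), lys-4 (9.61) and swt-7 (5.58), and low for cyp-25A1 (2.76) and ugt-20 (1.06). Library b of wild type with F17 was low for F10A3.4 (6.06), F44G3.2 (5.43), clec-3 (1.28), pgp-9 (7.34), sptl-2 (6.20), str-7 (-0.41) and ttm-5 (5.38). In library d of nhr-131 with DMSO C28C12.4 (0.88) and Y49E10.18 (6.15) were low. Single libraries also stood apart for F10A3.4 in c of wild type with DMSO (6.53, low), clec-206 in b of wild type with DMSO (1.38, high), fat-5 in a of wild type with F17 (7.97, high), F11D5.7 in a of nhr-131 with F17 (2.14, high), cyp-14A4 in c of nhr-131 with F17 (7.74, low), gale-1 in e of nhr-131 with F17 (7.12, high) and cyp-35C1 in c of nhr-131 with DMSO (5.26, high). With both of the libraries that stood apart most left out there were 110 falls, 49 modest shared falls and 48 modest shared rises.

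For 16 named genes the F17 effect differed between genotypes by the interaction test at an adjusted p under 0.05 (edgeR). The effect in nhr-131 minus that in wild type was positive for C32H11.4 (1.45), clec-206 (1.25) and ftn-1 (1.604). It was negative for F14B4.2 (-1.17), cdr-4 (-1.63), ges-1 (-0.87), gst-5 (-1.35), gst-6 (-1.06), gst-7 (-2.36), mrp-3 (-0.94), pgp-1 (-1.62), swt-6 (-4.53), swt-7 (-1.304), ttm-5 (-0.94), ugt-1 (-1.32) and ugt-20 (-5.81), all of which were called higher with F17 on average.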

How the results depend on the processing

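The stage term decided most calls: without it 23 genes were lower, 7 of them modest shared falls, and 11 modest shared rises remained by the rule. The other scalings, filters, tools, terms and sets of libraries left out together gave 110 to 244 falls, 49 to 86 modest shared falls and 156 to 252 rises. Modest shared rises numbered 57 with DESeq2 and 48 without the 2 libraries that stood apart most. With modest set at a log2 change under 0.5 there were 27 modest shared falls and 11 rises, with 2 there were 54 rises, and with the smaller effect at least 0.25 of the larger there were 118 falls and 43 rises. Leaving out 1 library gave 98 to 224 genes lower, 160 to 461 higher, 36 to 108 modest shared falls and 22 to 96 modest shared rises, the highest of each without library d of nhr-131 with DMSO. The cause was not tested.

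Of the wild-type falls, 71 were also lower in nhr-131 at an unadjusted p under 0.05 with no filter on low counts, 1 without the stage term, and 19 to 59 without 1 library. Of the nhr-131 falls, 17 were also lower in wild type with no filter, 44 when the 100 genes of lowest p were taken, and 1 to 17 without 1 library; without the stage term no gene was selected there, so no value could be had. The fold change of nhr-131 ran from -0.17 to 0.069 without 1 library and turned positive without d or e of nhr-131 with DMSO or a or b of nhr-131 with F17.

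With the column letter as a replicate block there were 152 genes lower and 176 higher, 58 modest shared falls and 30 modest shared rises, of which 133, 166, 50 and 25 were among those of the main comparison. Same-letter libraries did not deviate together in all pairs (correlations -0.65 to 0.80, 6 of 10 over 0.1). After the stage term was taken out the correlations were -0.40 to 0.20, with 3 of 10 over 0.1. The letters were therefore not taken as pairs.

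Of 3588 comparisons of the 97 named genes with 37 other settings, 3395 kept the call and direction, 189 lost the call and 4, all of nhr-131, changed sign.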

Other observations

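Several gene groups had mostly small estimates below 0 and no call, where 7391 of all 13795 tested genes were below 0. All 11 tested propionate breakdown genes were below 0 (median log2 fold change -0.12), as were 11 of 12 folate and one-carbon genes (-0.15), 23 of 26 genes of the tricarboxylic acid and glyoxylate cycles (-0.08), 19 of 20 vacuolar ATPase genes (-0.09), 29 of 32 aminoacyl-tRNA synthetase genes (-0.06) and 30 of 34 molting and apical matrix genes (-0.17). The median of the molting group was -0.03 in wild type and -0.34 in nhr-131. In the other groups the medians of each genotype lay between -0.21 and -0.02. None of these 6 groups had a gene called by edgeR, DESeq2 or limma-voom. At an unadjusted p under 0.05 edgeR had 1, 3, 3, 2, 3 and 5 of their genes lower, in that order, and 1 gene higher in each of the tricarboxylic acid, vacuolar ATPase and molting groups. Over all tested genes 1028 were lower and 900 higher at that p.

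Germ cell genes had mostly estimates above 0, with larger medians in wild type; the difference between genotypes was not tested for the groups. The 29 germline genes had a median of 0.43, with 0.82 in wild type and 0.00 in nhr-131, and 1 of them was below 0. The 95 sperm genes had a median of 0.54 (0.90 in wild type and 0.16 in nhr-131) and the 26 oocyte and eggshell genes one of 0.58 (1.05 and 0.15). By edgeR 0 of these were called and 11, 32 and 10 were higher at an unadjusted p under 0.05, against 900 of all 13795 genes. DESeq2 called 0, 3 and 1 of them and limma-voom 0, 1 and 0. The 6 vitellogenin genes, which encode yolk proteins made in the adult intestine, had medians of -1.19 in wild type and 0.90 in nhr-131, with 0 called by edgeR, DESeq2 or limma-voom for the mean effect and 1 lower at an unadjusted p under 0.05.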
